A study of Mus musculus with 10 samples.

Results

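The 42 genes described here encode proteins of mitosis, of DNA replication and of the control of the cell cycle in mouse mammary fat. They are the lines of the deposited expression table that carry 1 of 42 listed symbols, and all 42 were found among the 30319 symbols of the table. The list was made with earlier results of these data known. All 42 also passed the filter on low values and were among the 16932 genes tested. By their known roles, 24 are mitotic genes (spindle motors, centromere proteins, checkpoint and mitotic kinases, cyclins A and B), 12 act in DNA replication or nucleotide supply, and 6 are regulators (E2F factors, cyclins E, Foxm1 and Mybl2). All 42 are protein-coding genes in GENCODE M21 (GRCm38) and lie on 16 chromosomes. Of the 42, 9 lie on chromosome 2 (Bub1, Bub1b, Aurka, Tpx2, Nusap1, Ube2c, Pcna, E2f1 and Mybl2), which also carries Fap (chr2:62500943-62574075), the gene removed in the null mice, and they start 56.0 to 109.8 Mb from it.

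Before S phase, Cdc6 and Cdt1 load the MCM helicase onto replication origins, and DNA is then copied with PCNA as the sliding clamp of the polymerases, from nucleotides made with thymidylate synthase, thymidine kinase and ribonucleotide reductase. Genes for these steps are classic targets of E2F factors, which cyclin E and CDK activity release from the retinoblastoma protein. Genes for the later, mitotic steps are switched on in G2 by the MuvB complex with B-MYB (Mybl2) and FOXM1, through a promoter element called CHR. Mature adipocytes do not divide, so cycling cells of a fat pad are found among its epithelium, stroma, vessels and immune cells.

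The RNA came from whole inguinal mammary fat pads of female FVB mice that were wild type or FAP-/-, that is, without functional Fap, which encodes the stromal membrane protease fibroblast activation protein. The mice ate a low-fat diet with 10% of kcal from fat or a matched high-fat diet with 60%, between weeks 12 and 30 of age. This gave wild type on low fat (WT_LFD, n = 2), null on low fat (Null_LFD, n = 3), wild type on high fat (WT_HFD, n = 2) and null on high fat (Null_HFD, n = 3). The labels name neither the part of Fap that was removed nor a Cre driver, and do not say whether each sample is 1 mouse, so p-values measure the spread between samples described as biological replicates. In whole tissue, fewer cells of a type and less RNA per cell cannot be told apart.

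Values are TPM, a level that adjusts read numbers for transcript length and library size, or differences on the log2(TPM + 1) scale, which understate the fold change of low genes. Each library held 14574 to 15700 genes at 1 TPM or more, and adipocyte markers summed to 9447 to 23292 TPM. Fap ranged from 37.7 to 68.8 TPM with the wild-type genotype and from 18.3 to 38.4 TPM with the null genotype, so some Fap transcript was measured in the null pads. Since the removed part of the gene is not given, this level does not check the genotype labels. A set of 3 libraries stood apart before any comparison. WT_HFD 2 and Null_HFD 3 held B cell markers at 392 and 951 TPM in sum, against 7.26 to 13.9 TPM in the other 8 libraries, and are called lymph node-rich here after the node that lies in the inguinal pad. Null_LFD 3 stood apart in the 42 genes themselves, which is why it is reported separately and why results are given with and without it.

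In Null_LFD 3, 41 of the 42 genes were at their highest level of all 10 libraries, where 14% of the genes tested were. The exception was Cdt1, the origin licensing factor, at 10.8 TPM in Null_LFD 3 and 11.5 TPM in Null_HFD 3. In 31 of the 42 genes the library lay at least 1 above the next library on the log2(TPM + 1) scale, against 1.49% of the genes tested, and these 31 were 23 of 24 mitotic genes, 5 of 12 replication genes and 3 of 6 regulators. Together the 42 genes took 0.200% of all TPM in Null_LFD 3 and 0.0266% to 0.0685% in the other 9 libraries. By its difference from the mean of the other 9 libraries, 17 of the 42 genes ranked among the top 100 of the 16932 genes tested and 40 among the top 500. The difference ran from 3.64 for Top2a (rank 33) to 1.03 for E2f1 (rank 872). It is 1 library, chosen because it stood apart, so these values are a description without a test.

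**Figure D1:**
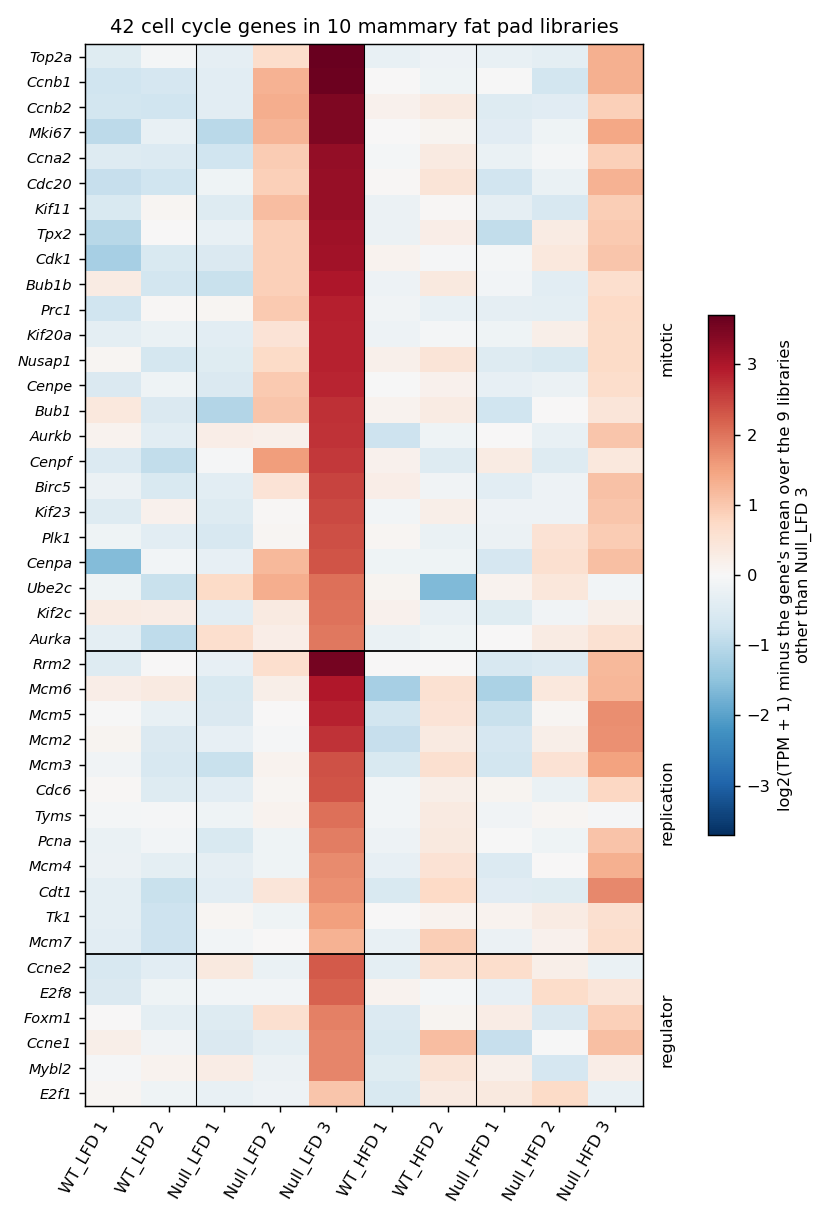
Each row is 1 of the 42 genes and each column 1 of the 10 libraries. Colour is log2(TPM + 1) minus the mean of that gene over the 9 libraries other than Null_LFD 3. Null_LFD 3 is the darkest column, with a difference from 1.03 (E2f1) to 3.64 (Top2a). Null_LFD 2 and Null_HFD 3 are next among the mitotic genes, and Null_HFD 3 among the replication genes.

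Promoters are shown for 5 genes because mitotic and replication genes parted in several libraries, and CHR, E2F and CCAAT elements are known from promoters of these classes. RefSeq promoters (GRCm38.p6) matched 35 of the 42 genes, and Ccna2, Aurkb, Kif20a, Tpx2, Mcm4, Ccne2 and Foxm1 were not matched. The 150 bases before the RefSeq start are printed 5′ to 3′ on the strand of the gene, which is the minus strand for all 5: Cdk1 at chr10:69352913-69353062, Top2a at chr11:99024190-99024339, Cdc20 at chr4:118437344-118437493, Mcm6 at chr1:128359706-128359855 and Tyms at chr5:30073626-30073775. Capitals mark the CHR (TTTGAA or TTCGAA), 4 spellings of the E2F site (TTCCCGC or TTCGCGC, as well as TTGCCGC or TTGGCGC) and the CCAAT box, each on either strand, so that a CCAAT box on the other strand reads ATTGG and the CHR TTCAAA.
Cdk1: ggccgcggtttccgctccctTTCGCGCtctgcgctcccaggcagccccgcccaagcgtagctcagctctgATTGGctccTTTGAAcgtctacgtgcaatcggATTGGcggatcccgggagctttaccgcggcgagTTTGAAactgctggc
Top2a: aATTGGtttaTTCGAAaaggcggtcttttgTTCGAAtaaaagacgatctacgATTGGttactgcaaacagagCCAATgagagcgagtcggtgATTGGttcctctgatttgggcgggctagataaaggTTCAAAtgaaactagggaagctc
Cdc20: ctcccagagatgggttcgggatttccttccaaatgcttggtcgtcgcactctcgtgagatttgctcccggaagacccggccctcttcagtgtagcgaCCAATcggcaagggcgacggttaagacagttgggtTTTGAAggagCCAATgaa
Mcm6: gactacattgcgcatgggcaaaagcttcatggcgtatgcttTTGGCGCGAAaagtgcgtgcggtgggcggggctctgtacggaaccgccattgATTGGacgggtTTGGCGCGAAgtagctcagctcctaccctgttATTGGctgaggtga
Tyms: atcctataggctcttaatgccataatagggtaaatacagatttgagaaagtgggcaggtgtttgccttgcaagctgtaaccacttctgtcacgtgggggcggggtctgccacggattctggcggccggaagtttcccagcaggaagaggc

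Cdk1 and Top2a carried both a CHR and CCAAT boxes, as did Cdc20, and Cdk1 also held an E2F site. In Mcm6 each of 2 stretches matched an E2F site on both strands, the 2 matches overlapping, and the window also held 2 CCAAT boxes. These 5 windows are examples and do not stand for their classes. The Tyms window held none of the 3 motifs. Over the 250 bases before the start, a CHR was found in 9 of 20 mitotic promoters (45%), 2 of 11 replication promoters (18.2%) and 12.5% of the promoters of genes tested. An E2F site was found in 3 of 20 mitotic (15%) and 5 of 11 replication promoters (45.5%), against 13.2%. A CCAAT box was found in 17 of 20 mitotic (85%) and 7 of 11 replication promoters (63.6%), against 35.9%. Among all 27025 promoters of the table the shares were 17.4%, 7.97% and 34.5%. A match of letters is not evidence of a bound site, and the shares were not tested.

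Among the mitotic genes, Mki67 (chr7:135689784-135716361), which coats mitotic chromosomes and is the usual marker of dividing cells, measured 2.73 and 5.11 TPM in WT_LFD, 2.68, 16.7 and 79.5 TPM in Null_LFD, 6.38 and 6.94 TPM in WT_HFD, and 4.51, 5.57 and 18.6 TPM in Null_HFD. Null_LFD 3 was 4.28-fold above the next library, Null_HFD 3, while Null_LFD 1 lay at the level of the lower wild-type library, so null and wild type overlapped on both diets. Top2a (chr11:98992943-99024189), the topoisomerase that untangles replicated chromosomes, measured 8.65 and 11.5 TPM in WT_LFD, 9.32, 19.5 and 163 TPM in Null_LFD, 9.91 and 10.4 TPM in WT_HFD, and 9.75, 9.19 and 31.4 TPM in Null_HFD. Its 7 lowest libraries, 4 of them wild type, sat within 8.65 to 11.5 TPM, and Null_LFD 3 was 5.18-fold above Null_HFD 3. Cdk1 (chr10:69335146-69352938), the kinase that drives entry into mitosis, measured 3.11 and 5.42 TPM in WT_LFD, 5.65, 16.5 and 80.6 TPM in Null_LFD, 9.47 and 8.37 TPM in WT_HFD, and 8.09, 11.6 and 18.3 TPM in Null_HFD. On the low-fat diet all 3 null libraries were above both wild-type libraries, Null_LFD 1 narrowly, and on the high-fat diet Null_HFD 1 was below both WT_HFD libraries.

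Ube2c (chr2:164769898-164778822), the ubiquitin-conjugating enzyme of the anaphase-promoting complex, measured 10.0 and 5.86 TPM in WT_LFD, 18.9, 29.9 and 49.2 TPM in Null_LFD, 12.1 and 2.97 TPM in WT_HFD, and 12.4, 15.5 and 10.4 TPM in Null_HFD. It was the mitotic gene least raised in Null_LFD 3, at 3.75-fold the mean of the other 9 libraries, and the 1 mitotic gene in which that library was not at least 1 log2 above the next. All 3 Null_LFD libraries exceeded both WT_LFD libraries, and the lymph node-rich WT_HFD 2 was the lowest of the 10. Prc1, which bundles the microtubules of the central spindle, measured 3.49 and 6.73 TPM in WT_LFD, 6.76, 13.4 and 53.2 TPM in Null_LFD, 5.74 and 5.14 TPM in WT_HFD, and 4.96, 4.84 and 11.3 TPM in Null_HFD. Apart from Null_LFD 2, Null_LFD 3 and Null_HFD 3, its libraries kept within 3.49 to 6.76 TPM. Ccna2, cyclin A2, measured 3.29 and 3.22 TPM in WT_LFD, 2.61, 10.5 and 56.2 TPM in Null_LFD, 4.67 and 6.56 TPM in WT_HFD, and 4.05, 4.69 and 10.0 TPM in Null_HFD. Null_LFD 1 was its lowest library and Null_LFD 3 its highest, so the extremes came from the same group. Cenpf, a large kinetochore protein, measured 2.27 and 1.45 TPM in WT_LFD, 3.46, 12.4 and 27.5 TPM in Null_LFD, 4.17 and 2.33 TPM in WT_HFD, and 4.64, 2.30 and 5.04 TPM in Null_HFD. The Null_LFD and WT_LFD libraries did not overlap, and the high-fat libraries did.

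Over all 24 mitotic genes, Null_LFD 3 was a median 8.49-fold above the mean of the other 9 libraries, with a range from 3.75 to 13.1. Ccnb2, a mitotic cyclin, stood at the upper end with 33.2 TPM against 0.852 to 6.84 TPM elsewhere, and Ccnb1, the partner of Cdk1, followed with 54.1 TPM against 1.68 to 10.1 TPM. Plk1, the polo kinase of the spindle, was among the lowest expressed, at 9.26 TPM against 0.318 to 2.77 TPM, and 17 of the 24 reached 1 TPM in every library. Spindle motors (Kif11, 30.4 against 1.24 to 6.36 TPM), the checkpoint kinase Bub1b (42.6 against 2.12 to 9.13 TPM) and the histone variant of centromeres Cenpa (26.1 against 0.805 to 11.5 TPM) shared the pattern. Among the other 9 libraries the highest was Null_LFD 2 for 12 mitotic genes, Null_HFD 3 for 11 and Null_LFD 1 for Aurka.

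**Figure D2:**
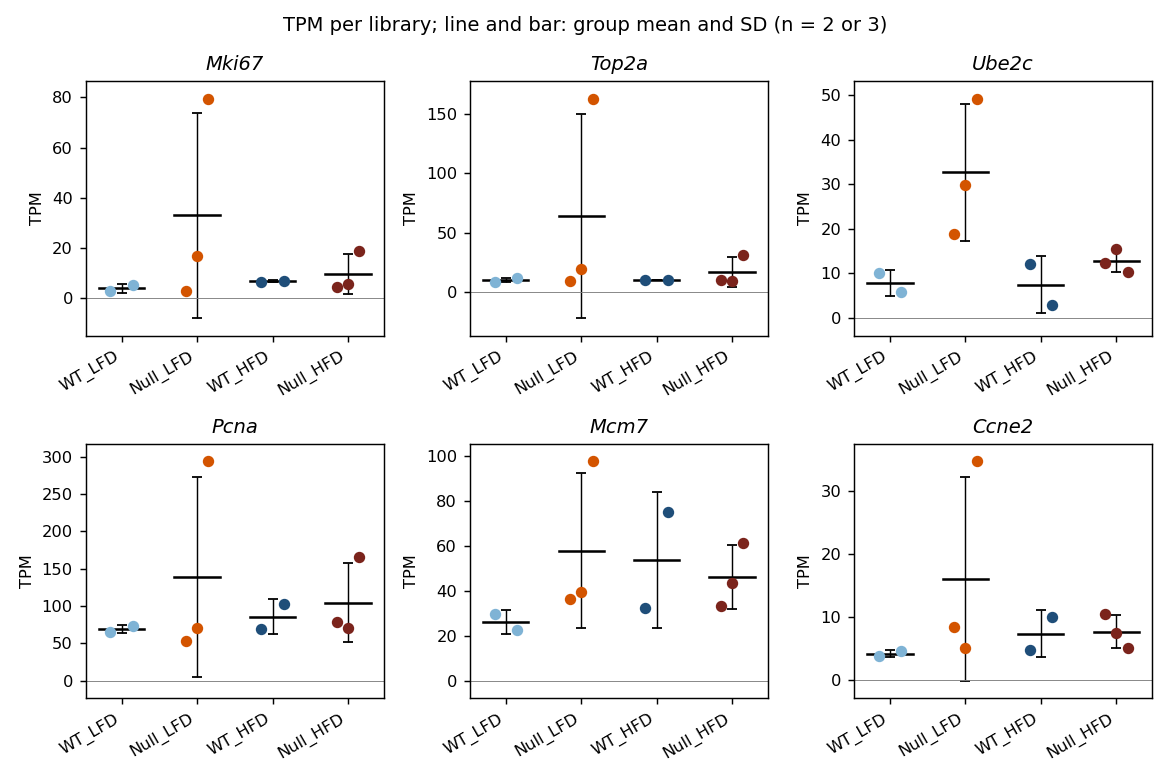
TPM of 6 of the genes, with 1 point per library, a line for the group mean and a bar for its SD (n = 2 or 3). The y axes are linear and differ between panels. Null_LFD 3 is the top point of each panel, from 34.7 TPM (Ccne2) to 294 TPM (Pcna), and the SD of Null_LFD exceeds the group mean for Mki67, Top2a and Ccne2.

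By ratio, replication genes stood less far above the other 9 libraries in Null_LFD 3 than mitotic genes did. Their level in those 9 libraries was higher, with a median over the genes of 10.4 TPM against 3.92 TPM for mitotic genes. Pcna (chr2:132249162-132253314), the sliding clamp, was the most abundant of the 42 genes and measured 65.9 and 72.7 TPM in WT_LFD, 53.2, 70.2 and 294 TPM in Null_LFD, 69.1 and 102 TPM in WT_HFD, and 78.2, 70.7 and 165 TPM in Null_HFD. Null_LFD 1 was the lowest of the 10 libraries, and the 3 highest were Null_LFD 3 and the lymph node-rich pair. Mcm7 (chr5:138164583-138172422), a subunit of the replicative helicase, measured 29.8 and 22.4 TPM in WT_LFD, 36.2, 39.7 and 97.5 TPM in Null_LFD, 32.4 and 75.0 TPM in WT_HFD, and 33.4, 43.6 and 61.3 TPM in Null_HFD. All 3 Null_LFD libraries were above both WT_LFD libraries, and Null_LFD 3 was 1.30-fold above WT_HFD 2. Tyms (chr5:30058202-30073617), thymidylate synthase, measured 18.0 and 18.3 TPM in WT_LFD, 16.8, 20.5 and 79.3 TPM in Null_LFD, 17.3 and 23.7 TPM in WT_HFD, and 17.0, 19.9 and 18.1 TPM in Null_HFD. It stayed within 16.8 to 23.7 TPM in 9 libraries and was 3.34-fold above the next in Null_LFD 3. Tk1, thymidine kinase, measured 14.1 and 10.5 TPM in WT_LFD, 19.5, 16.5 and 54.3 TPM in Null_LFD, 18.5 and 20.1 TPM in WT_HFD, and 20.3, 22.8 and 28.4 TPM in Null_HFD. Its null libraries were above the wild-type libraries of the same diet on both diets, although Null_LFD 1 and 2 lay within the range of WT_LFD and WT_HFD combined.

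Over the 12 replication genes, Null_LFD 3 was a median 4.50-fold above the mean of the other 9 libraries, with a range from 2.35 (Mcm7) to 13.2 (Rrm2). Rrm2, the small subunit of ribonucleotide reductase, read 52.6 TPM against 2.06 to 9.56 TPM elsewhere, close to the pattern of the mitotic genes. The 6 MCM helicase subunits differed among themselves. Mcm6 was 7.41-fold and Mcm5 7.03-fold above the mean of the other libraries, while Mcm4 was 3.25-fold above it. Null_HFD 3 was the highest of the other 9 libraries for 10 replication genes and WT_HFD 2 for Mcm7 and Tyms, so both lymph node-rich libraries accounted for all 12.

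Of the regulators, Ccne2 (chr4:11191351-11204779), an E-type cyclin of S phase entry, measured 3.90 and 4.61 TPM in WT_LFD, 8.42, 5.20 and 34.7 TPM in Null_LFD, 4.74 and 10.0 TPM in WT_HFD, and 10.5, 7.53 and 5.15 TPM in Null_HFD. The low-fat groups did not overlap. Its paralog Ccne1 measured 4.09 and 3.05 TPM in WT_LFD, 2.03, 2.40 and 14.5 TPM in Null_LFD, 1.97 and 8.78 TPM in WT_HFD, and 1.45, 3.34 and 8.60 TPM in Null_HFD. Null_LFD 1 and 2 were below both WT_LFD libraries, and the lymph node-rich pair read 8.78 and 8.60 TPM. E2f1 (chr2:154559407-154569892), an activating E2F, measured 4.35 and 3.51 TPM in WT_LFD, 3.17, 3.48 and 9.39 TPM in Null_LFD, 2.43 and 5.42 TPM in WT_HFD, and 5.48, 7.36 and 3.21 TPM in Null_HFD. It differed least in Null_LFD 3, at 2.20-fold the mean of the other 9 libraries, and the groups overlapped on both diets. The repressor E2f8 was at 7.04 TPM in Null_LFD 3 and 0.232 to 1.82 TPM elsewhere, Foxm1 at 11.0 TPM and 1.25 to 5.09 TPM, and Mybl2 at 9.81 TPM and 1.04 to 3.29 TPM.

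The mitotic and the replication genes did not rank the libraries alike. Set as log2(TPM + 1) against each gene's mean over the 9 libraries other than Null_LFD 3, the median mitotic gene stood at 2.85 in Null_LFD 3 and the median replication gene at 2.18. In Null_LFD 2 the mitotic median was 0.89 and the replication median 0.05. In Null_HFD 3 they were 0.91 and 1.21, and in WT_HFD 2 they were -0.05 and 0.45. The other 6 libraries had mitotic medians from -0.49 to just under 0 and replication medians from -0.46 to 0.07. In summed levels, mitotic genes held 217 TPM in Null_LFD 2 and 212 TPM in Null_HFD 3, against 71.4 to 101 TPM in the 7 libraries below them. Replication genes held 411 TPM in Null_HFD 3 and 290 TPM in WT_HFD 2 but 198 TPM in Null_LFD 2, where the 6 remaining libraries besides Null_LFD 3 held 157 to 209 TPM. Null_LFD 3 held 971 and 847 TPM. B cell and T cell markers moved with the replication genes in the lymph node-rich pair, at 392 and 951 TPM and at 239 and 737 TPM, and their part in the result was not tested.

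**Figure D3:**
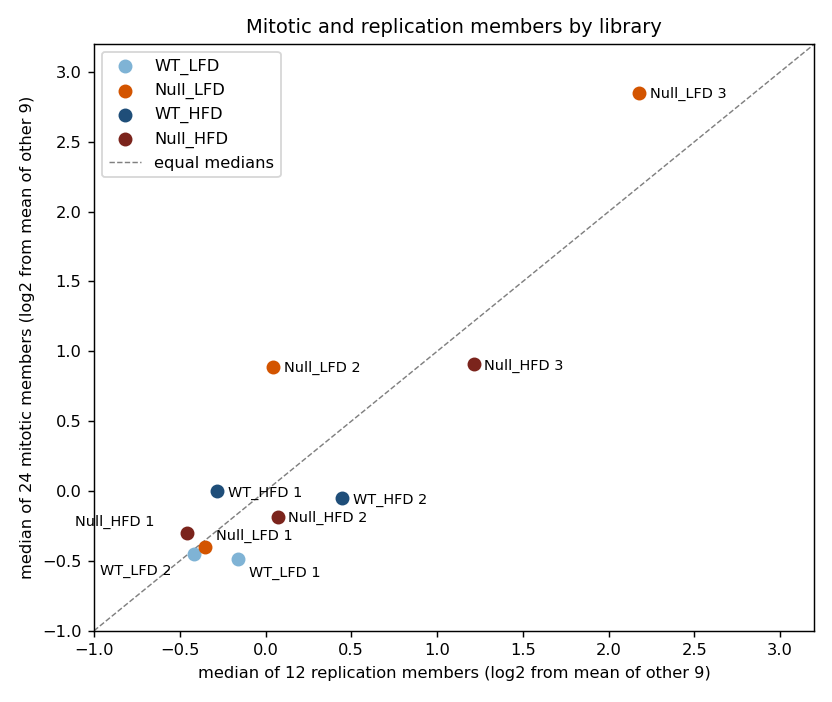
Each point is 1 library, placed by the median of the 12 replication genes (x) and of the 24 mitotic genes (y), both as log2(TPM + 1) minus the mean of each gene over the 9 libraries other than Null_LFD 3. Null_LFD 2 lies above the line of equal medians (0.05 and 0.89), Null_HFD 3 and WT_HFD 2 lie below it (1.21 and 0.91, 0.45 and -0.05), and Null_LFD 3 is at the upper right.

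Other genes of the same processes, listed by known function with none of the 42 among them, are given here by counts. Null_LFD 3 was the highest library for 42 of 44 other mitosis genes tested (all but Cdc25b and Smc4), for 33 of 33 other replication genes and for 25 of 26 replication-dependent histone genes (all but Hist2h4), beside 14% of the genes tested. The histone genes summed to 6799 TPM in Null_LFD 3 and 974 to 2789 TPM elsewhere, but their copies are near identical and reads may be split between them, so single histone values are uncertain. For G1 cyclins, CDKs and E2F-RB genes the count was 12 of 21. Ccnd1, cyclin D1, was at 126 TPM against 15.7 to 51.5 TPM and Cdk4, its kinase partner, at 276 TPM against 61.1 to 113 TPM, while Ccnd2 was at 101 TPM, inside the range of 59.8 to 103 TPM. None of the 7 CDK inhibitors was highest in Null_LFD 3. Cdkn1a, the p53-induced inhibitor p21, was at its lowest there, with 7.17 TPM against 11.0 to 39.4 TPM elsewhere. In the low-fat genotype comparison, limma called none of these genes, and their median differences were 1.12 (other mitosis), 0.72 (other replication), 1.51 (histones), 0.36 (G1 genes) and -0.03 (CDK inhibitors), with 3, 0, 2, 0 and 1 genes at an unadjusted p under 0.05, where 4.43% of the genes tested were.

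Cell type markers differed between the libraries as well. In Null_LFD 3 basal epithelial markers summed to 163 TPM against 32.6 to 136 TPM elsewhere, and 4 of 5 (Krt5, Krt14, Krt17 and Trp63, not Oxtr) were at their highest there. Luminal epithelial markers summed to 1836 TPM, inside the range of 382 to 3485 TPM, and 3 of 13 (Krt19, Epcam and Cldn7) were at their highest. Null_LFD 2, the library with the next highest mitotic median on the low-fat diet, had the most luminal (3485 TPM) and the next most basal marker RNA (136 TPM). Null_HFD 3, with a mitotic median of 0.91, had the least of both (382 and 32.6 TPM). Null_LFD 1, with a mitotic median of -0.40, had 3225 TPM of luminal and 91.4 TPM of basal marker RNA. None of the epithelial markers was at 0 in Null_LFD 3, and the part of epithelial content in the result was not tested. Lymphocyte markers were not higher with the 42 genes in Null_LFD 3, where B cell markers summed to 10.2 TPM, inside the 7.26 to 13.9 TPM of the other 7 libraries without node markers, and T cell markers to 10.4 TPM, the lowest of 10. Endothelial markers were also at their lowest (261 TPM against 273 to 429 TPM), and macrophage markers were at 247 TPM (201 to 355 TPM elsewhere). Progenitor and fibroblast markers summed to 1817 TPM (1277 to 2501 TPM elsewhere), with 1 of 7 (Lum) at its highest. Adipocyte markers summed to 13006 TPM (9447 to 23292 TPM elsewhere). Erythroid markers summed to 41.6 TPM (17.0 to 61.0 TPM elsewhere), germinal centre markers to 34.3 TPM (23.0 to 45.02 TPM) and skeletal muscle markers to 1770.1 TPM (55.2 to 5448 TPM), each inside the range of the other libraries. Plasma cell markers summed to 131 TPM against 17.9 to 60.7 TPM. Of this sum Sdc1, also made by epithelium, was 129 TPM, and it was the 1 of the 3 at its highest in Null_LFD 3. Igj, the older symbol of the listed Jchain, was left out of the sum and was at 21.3 TPM (9.65 to 72.4 TPM elsewhere).

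**Figure D4:**
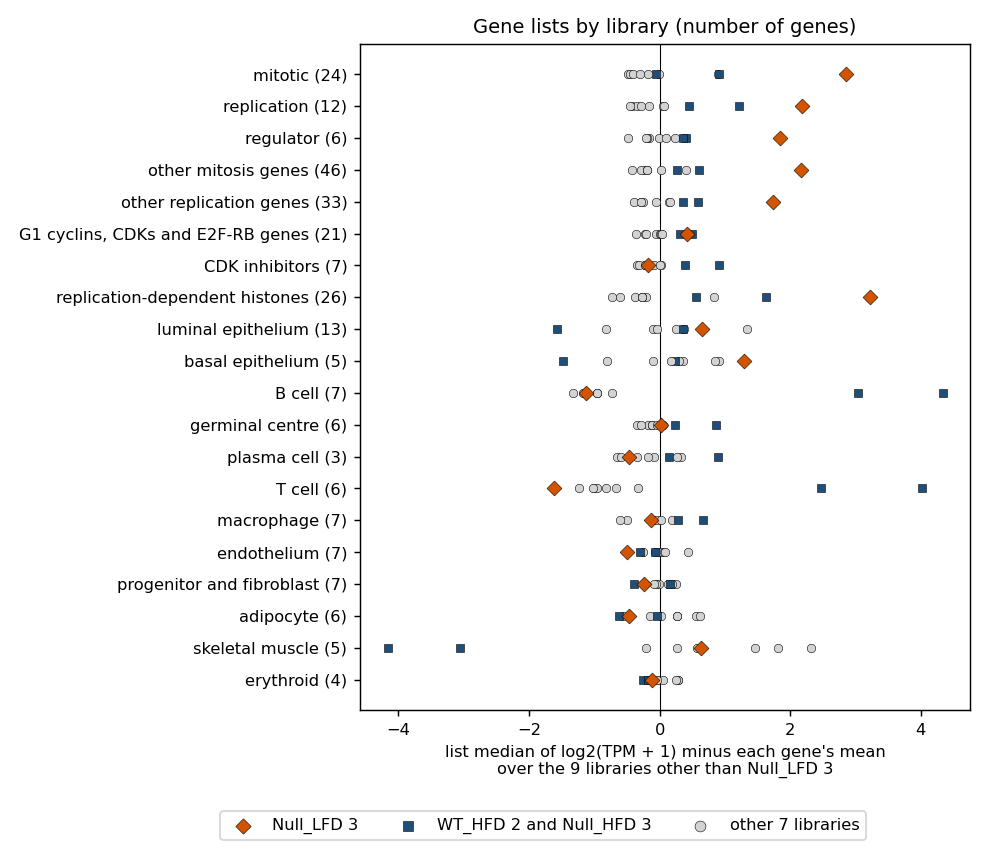
Each row is a gene list with its number of genes in the table, tested or not, and each point the median of the list in 1 library, as log2(TPM + 1) minus the mean of each gene over the 9 libraries other than Null_LFD 3. Null_LFD 3 (diamond) is far right in the mitotic (2.85), replication (2.18) and histone (3.23) rows. The lymph node-rich pair (squares) is far right in the B cell (3.04 and 4.34) and T cell (2.47 and 4.02) rows.

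Null and wild type were compared on the low-fat diet, with all p-values from limma adjusted over the 16932 genes. All 42 genes had a fitted difference above 0, with a median of 1.19 on the log2(TPM + 1) scale. No gene of the 42 passed the threshold, an adjusted p of at most 0.05 for a call, where 0% of the genes tested did. An unadjusted p under 0.05 was found for 9 of the 42 (21.4%, beside 4.43% of the genes tested). Null_LFD 3, already known to stand above the other libraries in these genes, is 1 of the 3 Null_LFD libraries. These directions and counts were therefore partly set in advance, here and in the other comparisons that include it. The median was 1.57 for mitotic genes, 0.91 for replication genes and 0.70 for regulators, beside 0.15 for all genes tested. With median-of-ratios scaling, which brought the median of all genes to 0.01, the median of the 42 was 1.08. The 3 Null_LFD libraries were all above both WT_LFD libraries for 13 of the 42, of which 9 were mitotic, beside 19.1% of the genes tested. Markers of luminal and basal epithelium and of skeletal muscle differed in the same direction. Medians were below 0 for endothelial (-0.17, 0 of 7 above 0), adipocyte (-0.39, 1 of 6) and progenitor and fibroblast markers (-0.28, 2 of 7). They were -0.01 for B cell, 0.19 for T cell and 0.35 for macrophage markers. Luminal epithelial markers had a median of 1.16 (12 of 13 above 0) and summed to 663 to 1451 TPM in WT_LFD and 1836 to 3485 TPM in Null_LFD. Basal markers had a median of 1.03 (5 of 5 above 0) with sums of 36.8 to 96.1 and 91.4 to 163 TPM. Skeletal muscle markers had a median of 1.37 (5 of 5) with sums of 941 to 1574 and 1770.1 to 5448 TPM. None of the luminal, basal and muscle markers was called, and none was at 0 in a low-fat library. Without Null_LFD 3 their medians were 1.10, 0.87 and 1.84. The part of cell content in the differences of the 42 genes was not tested.

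Ube2c had the smallest p of the 42, with a difference of 1.85 (SE 0.53, adjusted p = 0.949), followed by the spindle pole kinase Aurka with 1.58 (SE 0.49, adjusted p = 0.949). Aurka measured 1.85 and 0.930 TPM in WT_LFD, 4.65, 3.31 and 13.1 TPM in Null_LFD, 2.09 and 2.27 TPM in WT_HFD, and 2.67, 3.49 and 4.42 TPM in Null_HFD. It was the 1 gene of the 42 in which all 6 null libraries were above all 4 wild-type libraries, beside 0.543% of the genes tested. Ube2c and Aurka are among the 9 genes of the 42 on chromosome 2 with Fap, 102 and 109.8 Mb from it, and linkage was not tested. Mki67 differed by 1.86 with an SE of 1.07, and Pcna by 0.57 with an SE of 0.65, and neither was called.

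Without Null_LFD 3, the median of the 42 genes was 0.41, with 33 above and 9 below 0. The mitotic median was then 0.59 (22 of 24 above 0), the replication median 0.05 (8 of 12) and the regulator median 0.10 (3 of 6). Ube2c differed by 1.51 (SE 0.55, adjusted p = 0.965), Aurka by 1.07 (SE 0.36, adjusted p = 0.892), Mki67 by 0.76 (SE 0.81) and Pcna by -0.18 (SE 0.41). Of the 42, 3 had an unadjusted p under 0.05 (7.14%, beside 4.75% of the genes tested) and none was called. The 9 genes below 0 were Kif2c, Kif23, Mcm3, Mcm5, Mcm6, Pcna, E2f1, Ccne1 and Mybl2. The remaining Null_LFD libraries were unlike each other, since the median mitotic gene stood at 0.89 in Null_LFD 2 and at -0.40 in Null_LFD 1. Leaving out Null_LFD 1 in place of Null_LFD 3 gave a median of 1.70 for the 42.

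**Figure D5:**
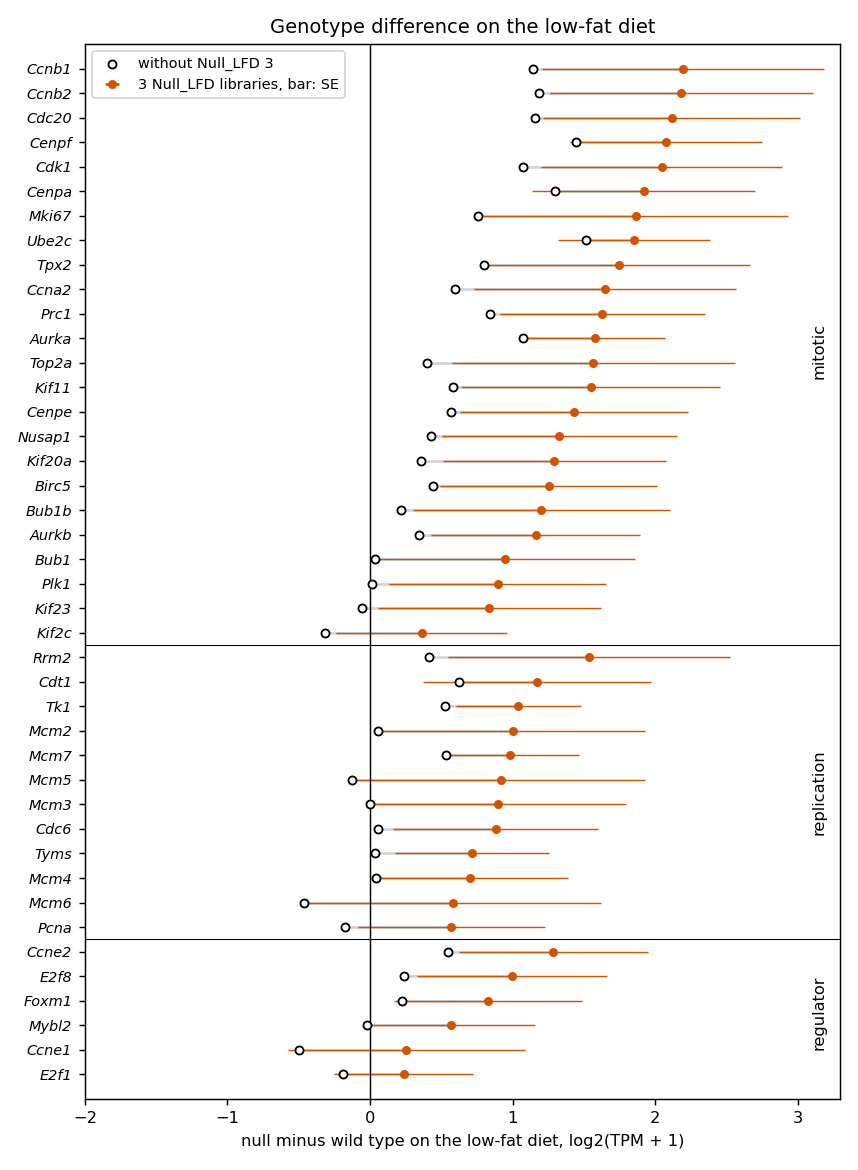
Null minus wild type on the low-fat diet for each of the 42 genes, as the fitted difference in log2(TPM + 1) with its SE (filled points, 3 Null_LFD libraries) and without Null_LFD 3 (open points). All 42 filled points are above 0, and 9 open points are below it.

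On the high-fat diet the null minus wild type differences were nearer to 0, with a median of 0.21, 31 above and 11 below 0, and medians of 0.18 for mitotic, 0.21 for replication genes and 0.17 for regulators, beside 0.02 for all genes. None of the 42 was called, where limma called 0.0118% of the genes tested, and none had an unadjusted p under 0.05, where 3.82% of the genes tested did. Luminal epithelial markers had a median of -1.10 (13 of 13 below 0), basal markers of -0.41 (3 of 5 below 0) and skeletal muscle markers of 0.70 (5 of 5 above 0) in this comparison. The smallest p of the 42 was that of Ube2c, with a difference of 0.92 (SE 0.53, adjusted p = 1). Aurka and Tk1 were the 2 genes in which the 3 Null_HFD libraries were above both WT_HFD libraries, beside 7.73% of the genes tested. Without the lymph node-rich pair, the median was 0.06, and the mitotic genes had a median of -0.14 with 7 of 24 above 0 while the replication genes had 0.18 with 11 of 12 above 0. This left WT_HFD 1 as the only wild-type library on high fat, so these values rest on it. Without Null_HFD 3 alone the median was -0.20, and without WT_HFD 1 alone -0.03, so its direction rested on single libraries. Ube2c differed by 0.06 without WT_HFD 2.

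Averaged over the diets, all 42 genes had a null minus wild type difference above 0, with a median of 0.69 (mitotic 0.93, replication 0.59, regulators 0.46), beside 0.08 for all genes. None of the 42 was called, where 0% of the genes tested were, and Ube2c (1.39, SE 0.38, adjusted p = 0.916), Aurka (1.04, SE 0.34, adjusted p = 0.980) and Cenpf (1.15, SE 0.48, adjusted p = 0.980) had an unadjusted p under 0.05 (7.14%, beside 4.19% of the genes tested). Without Null_LFD 3 the median was 0.29, with 36 above and 6 below 0, and without the lymph node-rich pair as well it was 0.24. On both diets and in their average the wild-type groups had 2 libraries each, and the averaged comparison shares its libraries with the comparisons within each diet.

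Diet was compared in the same fit. In wild type, high fat minus low fat gave a median of 0.28 over the 42 genes, with 34 above 0, beside 0.20 for all genes and 0.15 against 0.02 with median-of-ratios scaling. Mcm7 had the smallest p (0.91, SE 0.53, adjusted p = 0.761), and its difference was 0.32 without the lymph node-rich WT_HFD 2. In null mice the median was -0.70, with 41 of 42 below 0 and E2f1 above it, and the mitotic median (-0.98) was further from 0 than the replication median (-0.31). Without Null_LFD 3 the null median was 0.10, with 24 above and 18 below 0. The smallest p in null mice was that of Ube2c (-1.20, SE 0.48, adjusted p = 0.715), the 1 gene of the 42 with an unadjusted p under 0.05, where 6.67% of the genes tested were. In null mice luminal epithelial markers had a median of -1.40 (13 of 13 below 0, 10 at an unadjusted p under 0.05), basal markers of -1.06 (4 of 5 below 0) and skeletal muscle markers of -2.20 (5 of 5 below 0), each further from 0 than the 42 genes. Without Null_LFD 3 these medians were -1.49, -0.81 and -2.64. In wild type the medians were 0.55, 0.34 and -1.63. Other markers went the other way in null mice, with medians of 0.47 for adipocyte (5 of 6 above 0) and 0.34 for endothelial markers (6 of 7). Progenitor and fibroblast markers had -0.12 (1 of 7 above 0). B cell and T cell markers had 1.91 and 1.69 in null mice and 2.17 and 2.06 in wild type, with the lymph node-rich pair included. None of the 42 was called in wild type or null mice, where limma called 0% and 0.00591% of the genes tested.

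Averaged over the genotypes, the diet difference had a median of -0.19, with 31 of 42 below 0, beside 0.11 for all genes, and with median-of-ratios scaling the medians were -0.31 and -0.01. Ube2c had the smallest p (-0.74, SE 0.38, adjusted p = 0.534). Without Null_LFD 3 the median was 0.23, with 34 above 0, so its direction also turned on that library. The genotype by diet interaction, which tests whether the genotype difference itself differed between the diets, had a median of -1.02 over the 42 genes, with 41 below 0, beside -0.13 for all genes, and -0.91 with median-of-ratios scaling. Cenpf had the smallest p (-1.86, SE 0.95, adjusted p = 0.9998). Without Null_LFD 3 the interaction median was -0.30, with -0.56 for mitotic and 0.11 for replication genes. Luminal epithelial markers had an interaction median of -1.96 (13 of 13 below 0, 9 at an unadjusted p under 0.05) and basal markers of -1.51 (4 of 5 below 0), and without Null_LFD 3 these were -1.93 and -1.32. With all libraries, skeletal muscle markers had -0.65 (5 of 5 below 0), adipocyte markers 0.38 (6 of 6 above 0) and endothelial markers 0.30 (6 of 7 above 0). None of the 42 was called in the averaged diet comparison or the interaction, where 0% of the genes tested were in both, and none had an unadjusted p under 0.05, where 9.69% and 4.14% of the genes tested did.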

How the data were processed

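Ribosomal RNA was depleted before RNA of 10 mouse mammary fat pads was sequenced. The authors deposited 1 value per gene symbol and library, taken here as log2(TPM + 1), a unit inferred from the values, whose TPM sum to between 946103 and 954463 in a library. The tools kallisto and limma and the build GRCm38 were used, per the submitters' processing notes, with versions and roles not given in the sources used here. TPM keeps no read numbers, so the depth of the libraries is unknown and no counting error can be given. A line with no symbol, 0.00544% to 0.0108% of TPM, was left out.

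Libraries were grouped by their labels. Genes reaching 1 TPM in 2 or more libraries, 16932 in all, were fitted with limma (3.58.1, R 4.3.3) on log2(TPM + 1), pseudocount 1. The fit had 4 group means, 6 residual degrees of freedom and moderated variances with a trend on mean expression. The 7 comparisons were two-sided, and p-values were adjusted over all genes by the Benjamini-Hochberg method, and a call needed an adjusted p of 0.05 or less. The procedure was tested on simulated data. Alternatives were a pseudocount of 0.1, no filter, median-of-ratios scaling, array weights, no variance trend, the replicate number as a block, and leaving out libraries; leaving out Null_LFD 3 together with the lymph node-rich pair was added after seeing the data.

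The 42 genes, their roles and the 17 other gene lists (212 symbols, 209 of them in the table) were chosen with earlier results of these data known. Jchain and Adgre1 were not matched, since the deposited values carry them under the older symbols Igj and Emr1. Named genes are the 6 mitotic, 4 replication and 2 regulator genes with the highest mean TPM, Mki67, Pcna, the gene with the smallest p in each comparison and the largest and smallest difference of Null_LFD 3. Aurka and the other genes given by range were chosen after their values were seen. Gene positions are from GENCODE M21 and promoters from RefSeq (GRCm38.p6).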

Additional observations from a re-analysis of the deposited data

How the results depend on the processing

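None of the 42 genes was called in any of the 126 alternative fits (18 settings in each of 7 comparisons), and 6 of the 126 medians over the 42 genes changed direction. Part of the 126 medians could not change. The fits with no filter or no variance trend keep each difference as it is, as does leaving out a library that is in neither group compared. On high fat the genotype median turned from 0.21 to -0.10 with array weights, -0.43 with the replicate block, -0.03 without WT_HFD 1 and -0.20 without Null_HFD 3. Without Null_LFD 3 the diet median turned from -0.19 to 0.23 averaged over genotypes and from -0.70 to 0.10 in null mice. Without Null_LFD 3, 9 of the 42 genes changed direction for genotype on low fat, 6 averaged over diets, 23 for diet averaged over genotypes, 23 for diet in null mice and 16 for the interaction. On low fat 1 of the 9 was Pcna, from 0.57 to -0.18, with -0.18 to 1.05 over the fits with 1 library left out. Leaving out the lymph node-rich pair as well cannot alter this difference, since both are high-fat libraries. The count of called genes among all genes tested was small and moved with the settings. For genotype averaged over diets it was 0, and it was 3 with a pseudocount of 0.1, 15 with no filter (where genes near 0 enter), 2 with array weights, 5 without the variance trend and 0 to 2 with 1 library left out. For genotype on low fat it was 0, and 5, 2, 2 and 1 under those settings, 1 without the 3 unusual libraries and 0 to 1 with 1 library left out. For genotype on high fat it was 2, and 1 with a pseudocount of 0.1, 18 with no filter, 0 without the lymph node-rich pair, 0 without the 3 unusual libraries and 0 to 2 with 1 library left out. For diet averaged over genotypes it was 0, and 3 with no filter, 1 without the lymph node-rich pair and 0 to 1 with 1 library left out. For diet in wild type it was 0, and 5 with no filter, 2 without the variance trend and 0 to 2 with 1 library left out. For diet in null mice it was 1, and 0 with a pseudocount of 0.1, no filter, no variance trend, without the lymph node-rich pair or without the 3 unusual libraries, 2 with array weights and 0 to 2 with 1 library left out. For the interaction it was 0, and 3 with no filter and 0 to 2 with 1 library left out. The causes were not tested. Leaving out 1 or more libraries left some groups with a single library, which was assumed to vary like the other groups.

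The labels do not say what a replicate number marks. Deviations from group means correlated at -0.346 to 0.412 between libraries of the same number (13 pairs, median 0.0245) and at -0.502 to 0.502 between others (24 pairs), so the numbers were not taken to pair the samples. No wild-type library carries the number 3. With the replicate block, 3 genes were called for diet in null mice, and the median of the 42 genes was 0.12 for genotype averaged over diets, 0.63 on low fat and -0.43 on high fat.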

Other observations

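Genes outside the lists above were ranked by how far Null_LFD 3 lay above the next library, and the following were chosen after their values were seen, with no test. The gap was widest for Exo1, the exonuclease of mismatch repair, at 36.5 TPM against 0.563 to 3.46 TPM in the other 9 libraries. Stmn1, the microtubule destabiliser stathmin, was at 222 TPM against 15.9 to 57.0 TPM. Some genes with no role in the cell cycle machinery shared the pattern. Timp1, an inhibitor of matrix metalloproteases, was at 55.4 TPM against 1.50 to 7.70 TPM, and Vcan, the matrix proteoglycan versican, at 121 TPM, a difference of 2.47 to the next library on the log2(TPM + 1) scale. The keratin gene Krt15 was at 48.6 TPM against 0 to 9.34 TPM, with Null_LFD 2 next, and Lgals7, a galectin of stratified epithelium, was at 48.9 TPM against 1.22 to 24.1 TPM, again with Null_LFD 2 next.

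Pbk, a mitotic kinase among the other mitosis genes, was at 37.6 TPM against 0.940 to 6.38 TPM. Among the other replication genes, Chek1, the kinase of the replication checkpoint, was at 40.2 TPM against 1.10 to 7.48 TPM and Uhrf1, which carries DNA methylation through replication, at 44.5 TPM against 1.65 to 14.3 TPM. Smc4, a condensin subunit, was at 145 TPM in Null_LFD 3 and 154 TPM in Null_HFD 3.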
